A study of Mus musculus with 15 samples.

Results

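The Hox genes of the 4 mammalian clusters were followed through cardiac reprogramming of mouse fibroblasts. They were taken as every row of the deposited count table named Hox with a cluster letter from a to d and a paralog number, which gave 40 rows with 39 distinct names of 37991 rows in all. Clusters A, B, C and D held 12, 10, 9 and 9 of these rows, and 34 rows had enough counts to be tested. On build mm9 the clusters span chr6:52105366-52210874, chr11:96055630-96229570, chr15:102751534-102867274 and chr2:74506367-74603200. The name Hoxa3 was on 2 rows, and the values called Hoxa3 here are those of ENSMUSG00000079560, since the other row had 0 counts in all 15 libraries. The other 5 rows that were not tested were Hoxb13, Hoxc11, Hoxc12, Hoxc13 and Hoxd4, none of which passed 15 counts in any library.

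Hox genes encode homeodomain transcription factors that give cells their position along the body axis. Within a cluster they lie in the order of their paralog number, and low numbers act toward the head and high numbers toward the tail and, in clusters A and D, the distal limb. Embryonic cells open a cluster from its low-numbered end onward, and fibroblasts are known to keep the Hox pattern of the body site they came from. The protein complexes Polycomb and Trithorax hold Hox genes silent and active, and retinoic acid, Wnt and Cdx factors turn them on in the embryo.

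The study has 5 groups of 3 libraries, all from cells labelled wildtype on a background that mixes 129J/SvE with C57BL/6. Secondary MEFs, mouse embryonic fibroblasts known to carry inducible reprogramming factors, were taken at passage 3. The day 9 cultures came from these MEFs after 6 days in reprogramming medium, then 2 in transdifferentiation medium and 1 in ieCPC basal medium containing BACS, a name the labels do not expand. The ieCPCs (induced expandable cardiovascular progenitor cells) were sorted on day 13, grown in that basal medium with BACS and sampled at passage 3 (P3) or passage 12 (P12). CM derivatives are ieCPCs kept for 25 days in a serum-free cardiac differentiation medium, and the labels do not give their passage. The labels do not say that the 3 libraries of a group came from separate cultures, and the p-values below may therefore reflect technical spread alone.

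Libraries held 21823056 to 29996464 counts, of which Hox rows took 9766 to 11108 in MEFs, 5544 to 6489 at day 9, 625 to 725 in P3 ieCPCs, 738 to 814 in P12 ieCPCs and 224 to 451 in CM derivatives. No list of progenitor markers was examined. The summed level of 7 cardiomyocyte markers was 3321 to 6193 CPM (counts scaled by library size and TMM factor) in CM derivatives and at most 47.4 CPM elsewhere. The 7 fibroblast markers summed to 8061 CPM or more in every library, so their sum marks no single group. Single fibroblast markers did differ between groups, as given below. Mitochondrially encoded genes took 52.0% to 59.4% of the counts in CM derivatives and 20.8% to 28.3% in the others, and TMM factors were 0.545 to 0.643 against 0.973 to 1.22. CM replicate 3 stood apart from the other CM libraries, with a chi-square per degree of freedom over genes of 25.7 and 40.8 against 10.5 between those. Reads are counted for whole cultures, so fewer cells of a type and less RNA per cell cannot be told apart.

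In MEFs the posterior end of the clusters carried most of the Hox signal. Summed over the 40 rows, the level per kilobase of the deposited gene length was 148 ± 1.14 CPM per kb (SD, n = 3), of which paralog groups 9 to 13 made 73.8% and cluster D 53.6%. Hoxd13, which patterns digits and the genital tubercle, alone made 42.4%, at 62.5 ± 1.34 CPM per kb. It was followed by Hoxa13, its partner in the distal limb, at 9.91 ± 0.378 CPM per kb, and by Hoxc8, a gene of the thoracic trunk, at 9.71 ± 0.762, and those 2 levels overlapped. Of the 40 rows, 29 were at 1 CPM or more in all 3 MEF libraries.

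By day 9 the summed level was 80.9 ± 1.67 CPM per kb and its makeup had shifted, with 25.7% from paralogs 9 to 13 and 57.5% from paralogs 4 to 8. Hoxc8 led at 14.1 ± 0.776 CPM per kb, ahead of Hoxd13 at 6.70 ± 0.383 and Hoxa5 at 6.58 ± 0.570, which overlapped. In P3 ieCPCs the sum was 7.004 ± 0.441 CPM per kb. Cluster B made 82.7% of it, and the neighbouring genes Hoxb2 to Hoxb5 alone made 76.4%. Hoxb4 led at 3.28 ± 0.320 CPM per kb, Hoxb5 followed at 1.02 ± 0.0861, and Hoxb3 and Hoxb2 lay at 0.527 ± 0.0674 and 0.526 ± 0.0939, which overlapped. Those 4 were the only rows at 1 CPM or more in all 3 P3 libraries, and 6 rows had no count there at all. In P12 ieCPCs the sum was 9.72 ± 0.315 CPM per kb, with 41.2% from cluster A and 47.8% from cluster B. CM derivatives had 6.52 ± 1.72 CPM per kb, with 39.1% from cluster A, 31.6% from B, 14.5% from C and 14.8% from D.

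**Figure D1:**
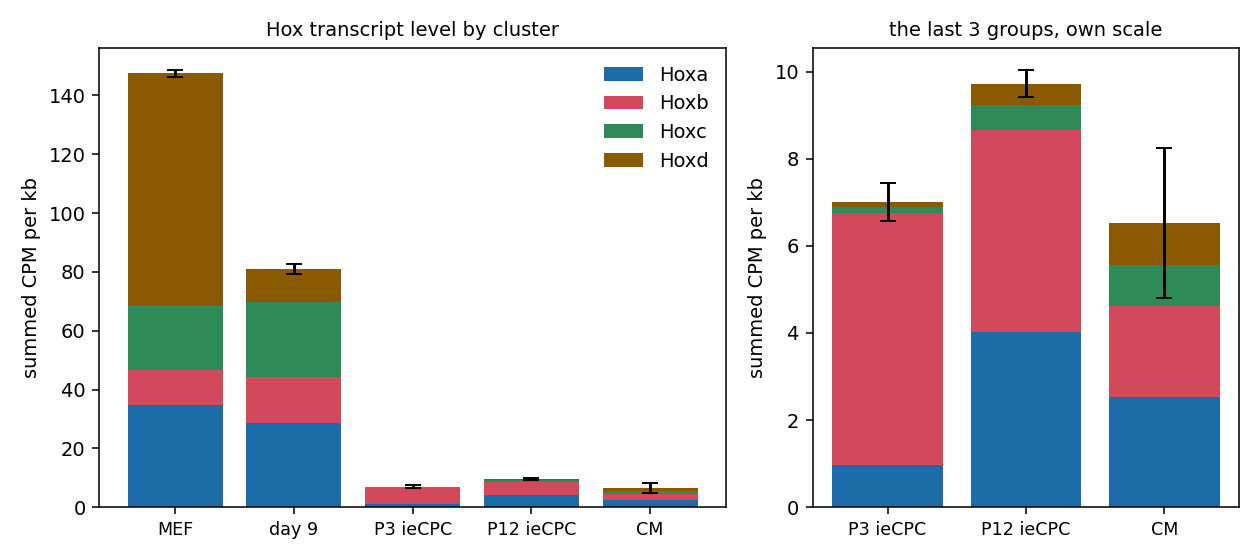
Summed level of the Hox rows in each group, in CPM per kilobase of gene length, stacked by cluster. Bars are means of 3 libraries, error bars are the SD of the total, and the right panel repeats the last 3 groups on a finer axis. The total is 148 CPM per kb in MEFs and 7.004 in P3 ieCPCs, where cluster B makes 82.7%.

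**Figure D2:**
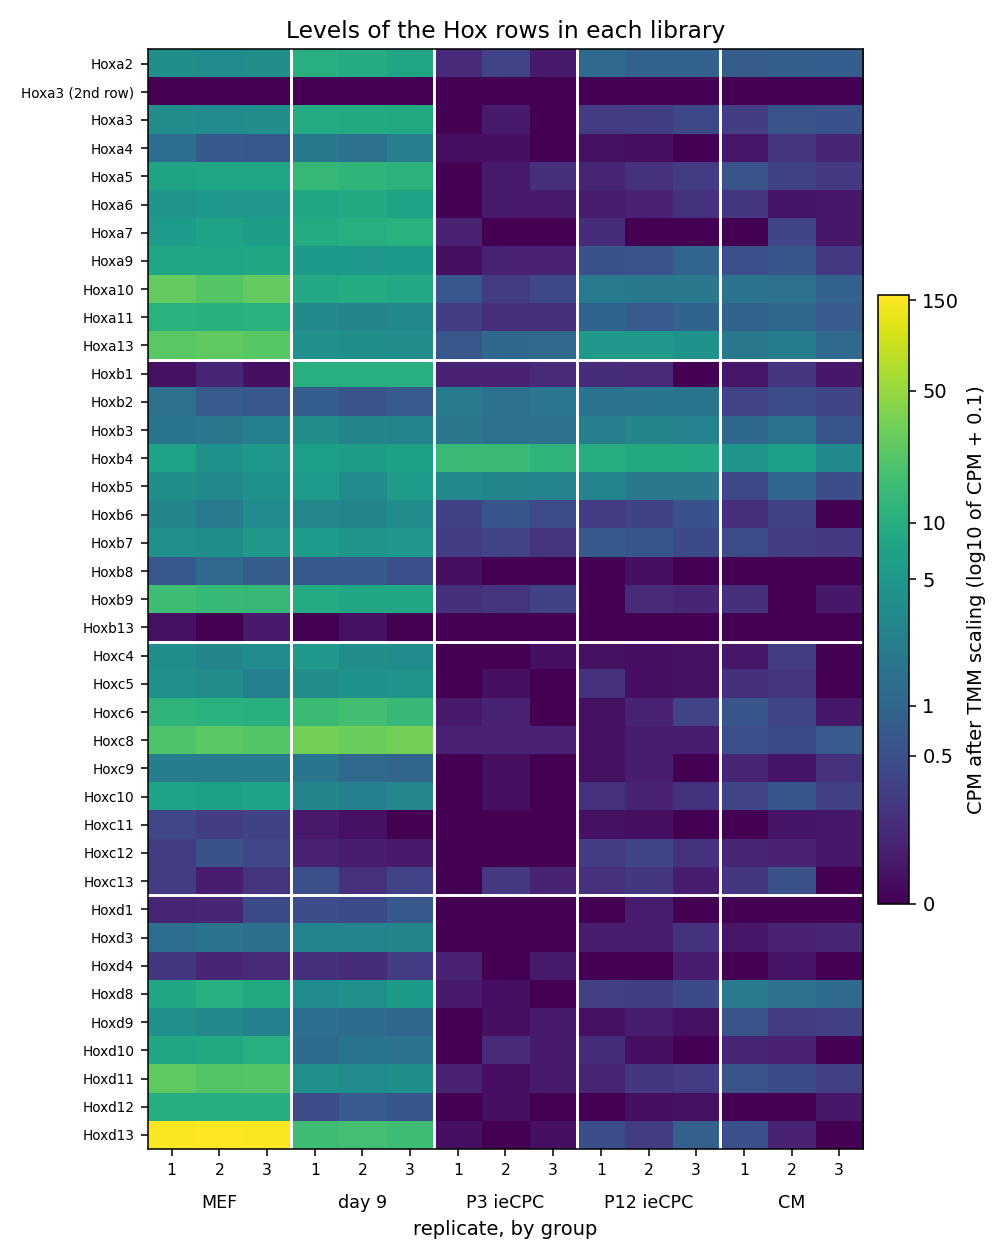
Level of 39 of the 40 Hox rows in the 15 libraries as log10 of CPM plus 0.1, ordered by cluster and paralog number. Most rows reach 1 CPM in MEFs and at day 9, and in P3 ieCPCs 4 rows of cluster B do so in all 3 libraries.

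Promoter sequence is shown for 3 members that behaved differently: Hoxd13, high in MEFs, Hoxb1, high at day 9 only, and Hoxb4, the leading member in P3 ieCPCs. Each is the 250 bases before the start of the gene in RefSeq, on build GRCm38.p6, which is not the build of the deposited table (mm9). All 3 genes lie on the plus strand, at chr2:74667975-74668224, chr11:96365508-96365757 and chr11:96318017-96318266. Capitals mark matches, on either strand, to the letters TATAAA (the core promoter box), CCAAT (the upstream box), TGATNNAT (a Hox-Pbx site) and TTTATNG (a Cdx site). They also mark AGGTCA (a half-site, not a full site, of the retinoic acid receptor) and GGGCGG (a GC box).
Hoxd13: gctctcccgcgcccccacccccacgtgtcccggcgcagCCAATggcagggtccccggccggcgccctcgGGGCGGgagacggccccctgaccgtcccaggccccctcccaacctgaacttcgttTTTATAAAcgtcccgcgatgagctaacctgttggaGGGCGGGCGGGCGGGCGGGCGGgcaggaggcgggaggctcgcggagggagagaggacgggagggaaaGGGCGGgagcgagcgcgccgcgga
Hoxb1: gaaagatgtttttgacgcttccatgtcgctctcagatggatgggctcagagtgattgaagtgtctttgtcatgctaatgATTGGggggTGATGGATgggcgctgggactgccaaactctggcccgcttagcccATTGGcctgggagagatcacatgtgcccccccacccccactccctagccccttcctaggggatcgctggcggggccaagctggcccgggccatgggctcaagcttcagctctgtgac
Hoxb4: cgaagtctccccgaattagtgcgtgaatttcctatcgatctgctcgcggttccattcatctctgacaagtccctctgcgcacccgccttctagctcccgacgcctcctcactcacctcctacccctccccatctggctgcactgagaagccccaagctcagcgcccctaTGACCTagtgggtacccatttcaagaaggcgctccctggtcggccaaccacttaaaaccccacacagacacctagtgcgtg
The Hoxd13 promoter held GC boxes, the core box TATAAA on both strands and the upstream box CCAAT, and 74.4% of its bases were G or C. The Hoxb1 promoter held the upstream box CCAAT and the Hox-Pbx letters TGATNNAT at 59.2% GC, and that of Hoxb4 the receptor letters AGGTCA at 58% GC. Promoter entries existed for 22 of the 39 Hox names, in 24 entries. CCAAT was in 14 of the 22 (63.6%) and in 33.8% of all 32851 promoters of that length. TATAAA was in 4 of the 22 and 12.4% of all, TGATNNAT in 4 and 7.68%, TTTATNG in 2 and 9.81%, AGGTCA in 6 and 14%, and GGGCGG in 10 and 32.7%. These are matches of letters only. The median GC share was 58.6% over the Hox entries and 52.4% over all promoters.

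Between MEFs and day 9 the clusters changed in opposite directions at their ends. Of the 34 members tested, 12 rose and 13 fell, or 73.5% called, where 57.2% of all 17999 genes tested were called, 29.7% higher and 27.4% lower (edgeR's quasi-likelihood test, Benjamini-Hochberg adjusted p under 0.05, the rule behind rose and fell throughout). Among paralogs 1 to 3, 6 of 8 rose and none fell, among paralogs 4 to 8, 6 of 14 rose and 1 fell, and all 12 tested members of paralogs 9 to 13 fell. The median log2 change was 1.25, 0.37 and -1.69 in the 3 classes, against 0.05 over all genes tested. Over the 34 members, paralog number and log2 change had a Spearman correlation of -0.893, given as a description, since neighbours in a cluster share transcripts and libraries. Among the untested rows of paralogs 9 to 13, Hoxc13 had 15 counts in MEFs and 30 at day 9. Hoxb13, Hoxc11 and Hoxc12 had 3, 26 and 31 counts in MEFs and 1, 3 and 7 at day 9.

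Hoxb1, which patterns the hindbrain at the head end of cluster B, had 1, 3 and 1 counts in the 3 MEF libraries and 316, 278 and 306 at day 9, or 10.5 CPM in each. The groups were far apart, and the rise was 155-fold (log2 change 7.28, SE 0.326, adjusted p = 1.06e-14). Without MEF replicate 2 the log2 change was 7.98. Hoxb1 was back at 0.107, 0.103 and 0.141 CPM in P3 ieCPCs. In cluster A the members from Hoxa2 to Hoxa7 rose. Hoxa2, of the hindbrain and branchial arches, rose 2.45-fold (adjusted p = 3.4e-07) and Hoxa3 2.52-fold (1.33e-07). Hoxa4 rose 2.07-fold (adjusted p = 0.00603), Hoxa5 1.65-fold (0.000178), Hoxa6 1.63-fold (0.000703) and Hoxa7 1.62-fold (0.00534). Outside cluster A, Hoxb1 aside, the members that rose were Hoxd3 1.87-fold (adjusted p = 0.00167), Hoxb3 1.59-fold (0.0114), Hoxc8 1.45-fold (6.17e-06) and Hoxc6 1.36-fold (0.0194). Hoxc8 was at 20.8, 24.2 and 21.9 CPM in MEFs and 33.4, 30.3 and 33.4 at day 9, with no overlap. Hoxb3 missed the threshold without MEF replicate 1 (log2 change 0.57, adjusted p = 0.0588) or day 9 replicate 1 (0.48, 0.0993). Hoxc6 missed it without MEF replicate 2 (0.43, 0.0571) or 3 (0.41, 0.0757), or day 9 replicate 1 (0.43, 0.0572) or 2 (0.35, 0.111).

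The falls at the other end were largest in cluster D. Hoxd13 was at 154, 159 and 152 CPM in MEFs and 16.3, 17.7 and 15.9 CPM at day 9. It fell 9.33-fold (log2 change -3.22, SE 0.104, adjusted p = 2.52e-17). Hoxd12, its neighbour with a role in the digits, went from 9.86, 9.73 and 9.80 CPM to 0.433, 0.721 and 0.615, a 16.6-fold fall (adjusted p = 2.05e-13). Hoxa13 was at 24.1, 25.5 and 23.8 CPM in MEFs and 3.96, 3.83 and 3.62 at day 9. It fell 6.41-fold (log2 change -2.68, SE 0.131, adjusted p = 4.51e-14). The falls of paralog group 9 were 1.45-fold for Hoxa9, 1.69-fold for Hoxb9, 1.64-fold for Hoxc9 and 2.52-fold for Hoxd9. Hoxc9 missed the threshold without MEF replicate 1 (log2 change -0.73, adjusted p = 0.0539), 2 (-0.72, 0.0562) or 3 (-0.71, 0.0625), or day 9 replicate 2 (-0.67, 0.0679) or 3 (-0.59, 0.104). Hoxd8, at the middle of cluster D, was the member below paralog 9 that fell, 2.11-fold (adjusted p = 8.54e-06). The stretch from Hoxb4 to Hoxb8 gave no call, with log2 changes from -0.44 to 0.42.

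With plain library totals and no TMM factor, an alternative chosen after the data were seen, the median of all genes moved to a log2 change of 0.33 and the split became 18 higher and 11 lower. Hoxb4, Hoxb5, Hoxb7, Hoxc4, Hoxc5 and Hoxd1 were then called higher, Hoxa9 and Hoxc9 were not called, and 10 of 12 members of paralogs 9 to 13 were lower. Markers of other cells moved with the groups. The 6 pluripotency markers summed to 0.240 to 0.527 CPM in MEFs and 315 to 344 CPM at day 9, and the 4 epithelial markers to 0.921 to 1.09 and 147 to 164 CPM. Of the 7 fibroblast markers 5 fell and 2 rose (100% called, beside 57.2% of all genes). Macrophage markers summed to 70.9 to 77.5 CPM in MEFs and 5.35 to 6.26 CPM at day 9, with C1qa, C1qb and C1qc at 0. Their part in the Hox changes was not tested.

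**Figure D3:**
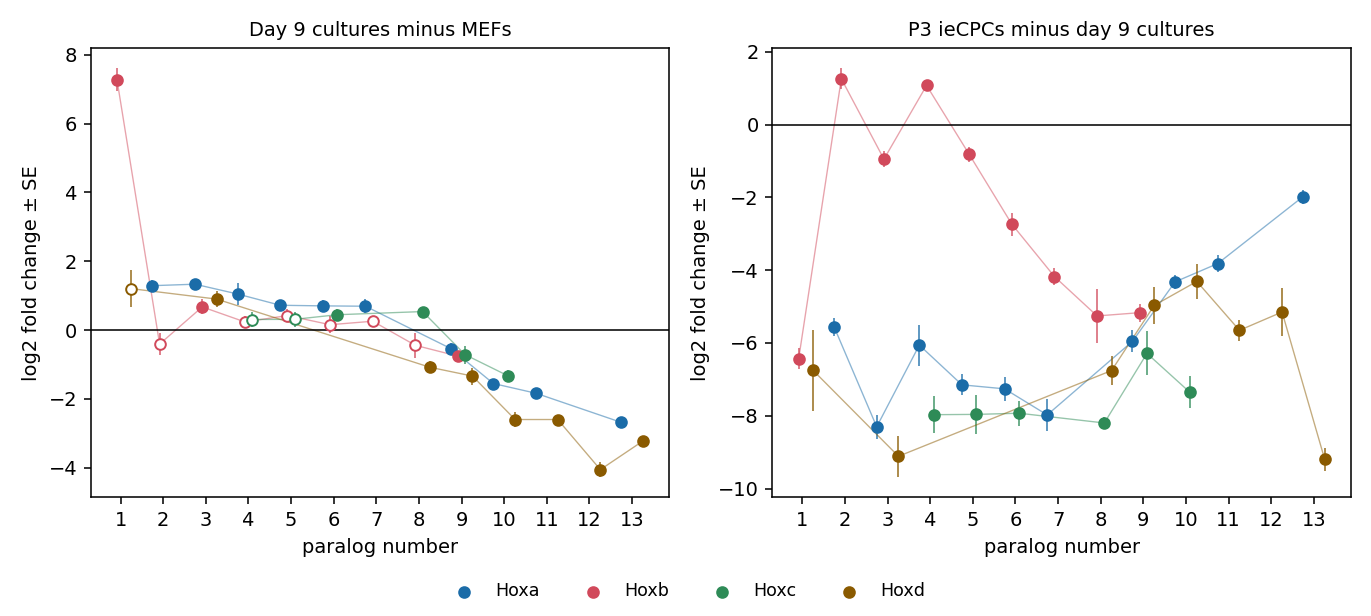
Log2 fold change with SE of the tested Hox members but 1 against paralog number, for day 9 minus MEFs and P3 ieCPCs minus day 9. Colours are clusters and filled points passed the test. In the first panel all 12 members of paralogs 9 to 13 lie below 0, and in the second Hoxb2 and Hoxb4 are the 2 points above 0.

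Several factors known to act on the clusters rose at day 9 and fell afterwards. Of 9 tested axial regulators 8 rose and 1 fell between MEFs and day 9, where 29.7% of all genes rose and 27.4% fell, and 8 fell between day 9 and P3 ieCPCs, where 32.3% of all genes fell. T, the mesoderm factor Brachyury, went from 0.0133 to 58.2 ± 2.1 CPM (n = 3) and then to 0.361 CPM. Lin28a, an RNA-binding protein of early embryonic cells, stood at 0.0117, 133 and 2.49 CPM and Nr6a1, a nuclear receptor of the trunk, at 4.43, 54.7 and 5.43 CPM. Cdx1 and Cdx2, homeodomain activators of the clusters, had 0 counts in MEFs and 2.12 and 2.34 CPM at day 9, at least 56.6-fold and 61.6-fold higher against 3 counts over the group. Cdx2 had no count in the other groups. Gdf11, a ligand that acts on the trunk to tail transition, was the regulator that fell, from 20.4 to 12.4 CPM.

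Among 17 genes of retinoic acid supply and response, 8 rose and 7 fell at day 9 (88.2% called, beside 57.2% of all genes). Cyp26a1, which degrades retinoic acid, rose from 0.0117 to 18.0 CPM, Stra6, which takes up its precursor, from 0.839 to 16.0 CPM and Aldh1a2, which makes it, from 4.92 to 34.0 CPM. Crabp1, which binds it in the cytoplasm, fell from 245 to 131 CPM and further to 0.457 CPM in P3 ieCPCs. The receptor Rarb fell from 6.57 to 2.76 CPM and rose to 11.2 CPM in P3 ieCPCs. The study measured RNA, and retinoic acid itself was not measured.

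Between day 9 and P3 ieCPCs nearly the whole of the 4 clusters fell together. Of the 34 members 32 fell and 2 rose, all of them called, where 60.7% of all genes tested were called, 28.4% higher and 32.3% lower. Members were kept for testing on counts over all 5 groups. At day 9, 30 of the 40 rows were at 1 CPM or more in all 3 libraries, and 4 were in P3 ieCPCs. Most members were thus tested through groups where they are high, which favours falls, and the count of falls is a description. The median log2 change was -5.80 over the members (-5.61 with members at 0 counts placed at their bound) and -0.03 over all genes. Paralog number and log2 change had a Spearman correlation of 0.022. Of the 32 that fell, 18 had over 3 counts in P3 ieCPCs. Many fall sizes thus rest on very few counts, and the correlation cannot show whether they followed an order. By cluster the medians were -5.96 in A, -2.74 in B, -7.95 in C and -6.20 in D, or -5.40 in D with bounds. In C 2 of 6 and in D 2 of 8 had over 3 counts in P3 ieCPCs, so the size of those medians is uncertain. Hoxc8 went to 0.107, 0.103 and 0.106 CPM, 3 counts in each P3 library, a 294-fold fall. Hoxa6, a gene of the cervical and thoracic trunk, fell 153-fold. Hoxd3 had 0 counts in P3 ieCPCs and was at least 77.1-fold lower, and Hoxd1 at least 14.9-fold. Among posterior members Hoxa13 fell least, 3.95-fold, to 0.641, 1.07 and 1.17 CPM, and Hoxa10, a gene of the lumbar axis and the uterus, fell 20.01-fold.

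Within cluster B the members differed in direction. Hoxb4, known for expanding blood stem cells, was at 6.43, 6.14 and 6.80 CPM at day 9 and 14.5, 14.3 and 12.09 CPM in P3 ieCPCs. It rose 2.11-fold with no overlap (adjusted p = 2e-06). Hoxb2, a gene of the hindbrain, was at 0.799, 0.607 and 0.752 CPM and then 2.07, 1.45 and 1.70. It rose 2.39-fold (adjusted p = 0.000511). Between and beside them Hoxb3 fell 1.93-fold and Hoxb5 1.76-fold, while Hoxb6 fell 6.66-fold, Hoxb7 18.1-fold, Hoxb9 35.9-fold and Hoxb1 86.1-fold. Exons of Hoxb2 and Hoxb3 share 49.4% and 37.9% of their bases with an antisense row, Hoxb3os, and the strand setting of the counting is not stated, so their reads and those of the antisense row cannot be told apart. For Hoxb4 and Hoxb5 the share was 2.65% and 3.56%. Hoxa7 shares 20.4% with an antisense row. Hoxa3 (52.3%) and Hoxd3 (35.8%) share bases with rows on both strands, Hoxc5 (15.4%) with a row on its own strand, and Hoxb7 and Hoxb8 (26.2% and 40.4%) with each other, so their values are uncertain as well.

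Set against the starting MEFs, which shares the P3 libraries with the comparison above, 29 of 34 members were lower in P3 ieCPCs and 2 were higher, 91.2% called beside 65.8% of all genes, 33.3% higher and 32.5% lower. The choice of tested members favours lower calls here too. Hoxd13 fell from 12324 counts over the 3 MEF libraries to 1, 0 and 1 counts. Hoxa13 fell 25.3-fold, Hoxd11, which patterns the forearm, 305-fold and Hoxc8 202-fold. Hoxd3 was at least 41.2-fold lower. Hoxb4 rose 2.48-fold over MEFs at 6.83, 4.33 and 5.27 CPM (log2 change 1.31, SE 0.157, adjusted p = 1.3e-07), and its groups did not overlap. Hoxb2 rose 1.81-fold (adjusted p = 0.00893), but the MEF library at 1.53 CPM overlapped the P3 libraries. Its call was lost without MEF replicate 2 (log2 change 0.69, adjusted p = 0.0507) or 3 (0.61, 0.0713) and without P3 replicate 1 (0.70, 0.0541). Hoxb3 at -0.28 (SE 0.24, adjusted p = 0.312) and Hoxb5 at -0.40 (0.21, 0.105) were not called. The summed neural markers were 72.3 to 73.4 CPM in MEFs and 3.32 to 4.62 CPM in P3 ieCPCs. Stmn2 made most of that fall, from 55.0 to 0.362 CPM. Tubb3 fell too, Sox10 rose from 0.167 to 0.586 CPM and Elavl3 was not called. Of the 7 fibroblast markers 6 were lower and none higher (85.7% called, beside 65.8% of all genes), with a median log2 change of -1.98. The part of these markers in the Hox levels was not tested.

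**Figure D4:**
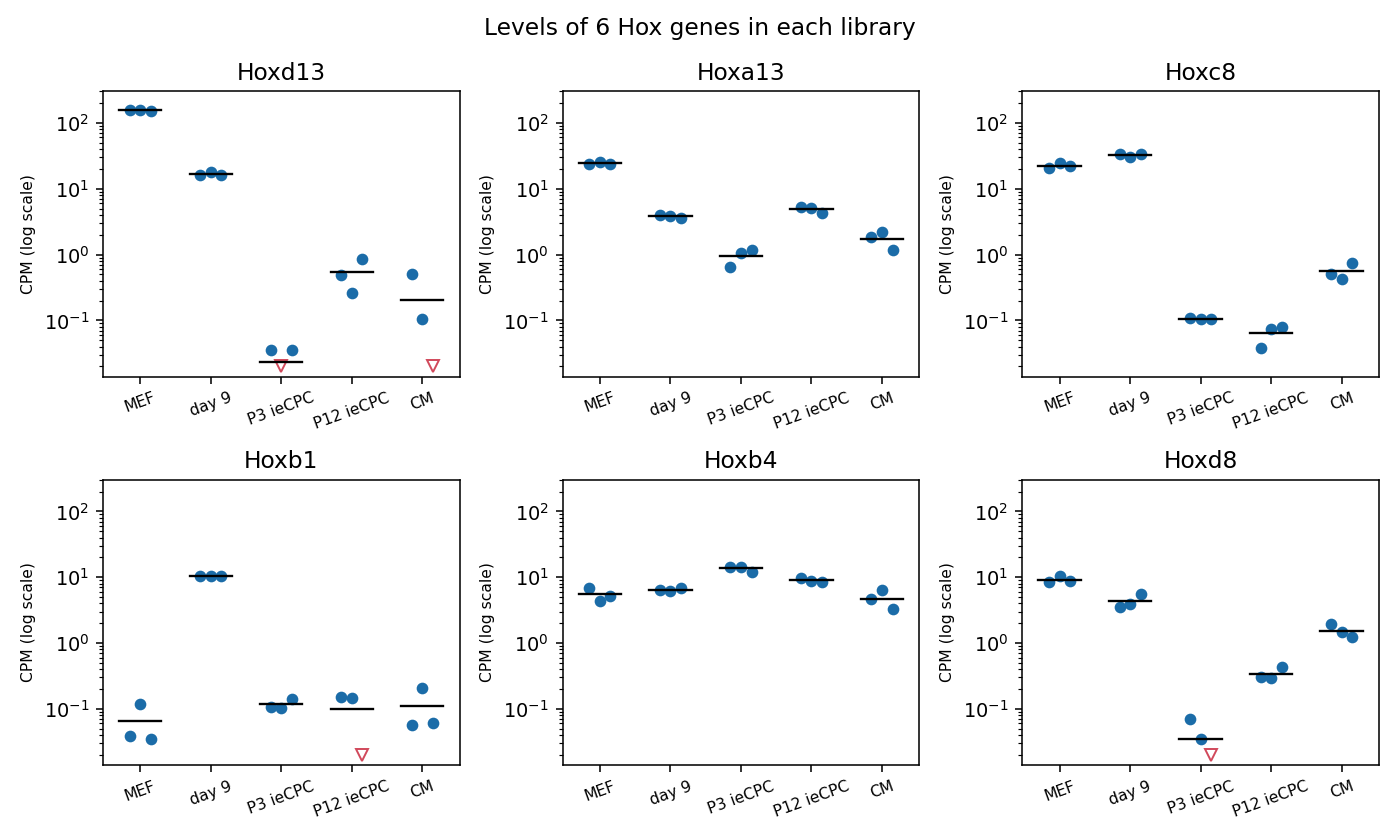
Level in CPM, on a log axis, of Hoxd13, Hoxa13, Hoxc8, Hoxb1, Hoxb4 and Hoxd8 in each library of the 5 groups. Black lines are group means and open triangles are libraries with 0 counts, placed at 0.02 CPM for display. Hoxd13 lies at 152 to 159 CPM in MEFs and at 1 count or none in P3 ieCPCs, while Hoxb4 lies at 12.09 to 14.5 CPM there.

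Most other transcripts inside the clusters fell in the ieCPCs too, while genes outside went both ways. Of 12 tested non-Hox rows within the clusters, 11 fell between day 9 and P3 ieCPCs (91.7% called, beside 60.7% of all genes), and against MEFs 10 were lower and 1 higher, with a median of -4.05. Of 28 tested rows within 300 kb outside the clusters, 11 were lower and 6 higher against MEFs, 60.7% called, near the 65.8% of all genes, with a median of -0.21. The difference between these sets was not tested. Most of the 12 rows within the clusters, Hoxb3os and Hoxa11as among them, share exon bases with Hox rows. The strand setting is not stated, so their reads and those of the Hox rows cannot fully be told apart. The long non-coding RNA Hotairm1, at the head end of cluster A, was at 2.43 CPM in MEFs, 7.77 at day 9 and 0.973 in P3 ieCPCs. Hottip, at the opposite end beside Hoxa13 and named Gm15053 in the table, was at 1.58, 0.169 and 0.023 CPM. So those at the 2 ends of cluster A changed in opposite directions at day 9, as did the Hox genes beside them.

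Evx2, the homeobox gene beside Hoxd13, was at 4.11 CPM in MEFs and had 0 counts in P3 ieCPCs, at least 118-fold lower. Evx1, beyond the posterior end of cluster A, went the other way, from 0.0133 CPM in MEFs to 1.87 at day 9, 0.785 in P3 and 2.25 in P12 ieCPCs. The nearest tested genes elsewhere around the clusters differed by less. Mtx2, 60660 bases from cluster D, differed by -0.34 on the log2 scale between P3 ieCPCs and MEFs and Atp5g1, 118646 bases from cluster B, by -0.71, both called. Calcoco1 (-0.11, adjusted p = 0.249) and Smug1 (-0.18, 0.142), 198925 and 116464 bases from cluster C, were not called. Skap1, on the other side of cluster B, rose from 0.145 to 0.492 CPM, and Gm15055, beside cluster A, was at 0.0852 and 0.0588 CPM and not called.

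Cofactors and chromatin regulators of Hox genes were expressed in both MEFs and P3 ieCPCs. Of 9 TALE cofactors, homeodomain partners that bind DNA with Hox proteins, 6 rose and 1 fell between MEFs and P3 ieCPCs (77.8% called, beside 65.8% of all genes). Pbx3 stood at 51.7 CPM in MEFs and 157 CPM in P3 ieCPCs and Pknox2 at 10.1 and 44.8 CPM. Of 22 Polycomb genes 8 rose and 5 fell (59.1% called, beside 65.8% of all genes), with a median log2 change of 0.013. Among those that rose, Jarid2 went from 31.0 to 68.2 CPM and Ezh2, the enzyme that writes the silencing mark, from 43.3 to 76.2 CPM. The part of these genes in the Hox levels was not tested. Of 10 Trithorax genes 2 rose and 4 fell, 60% called and near that share, and Kmt2a was at 216 and 226 CPM. Of 19 tested regional identity factors outside the clusters, 13 fell and 3 rose (84.2% called). Lhx9 fell from 60.8 to 0.234 CPM and Tbx15, of the body wall and limb, from 138 to 9.51 CPM, while the heart factors Hand2, from 3.03 to 33.0 CPM, and Hand1, from 0.0629 to 2.40 CPM, rose.

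Between passage 3 and passage 12 the ieCPCs gained transcripts of several members of cluster A. Of 34 members 13 rose and 1 fell, 41.2% called, where 36.8% of all genes were called. Higher calls were 38.2% of members and 17.3% of all genes, and lower calls 19.5% of all genes. The median log2 change was 1.25 over members and 0.00 over all genes. In cluster A 7 of 11 rose, among them Hoxa2, Hoxa3, Hoxa9, Hoxa10, Hoxa11 and Hoxa13, while Hoxa4 to Hoxa7 gave no call at 2 to 15 counts over the P12 libraries. Of these, Hoxa5 had a log2 change of 1.16 (adjusted p = 0.162) and Hoxa6 of 1.34 (0.172), and Hoxa5 was called higher without P3 replicate 3 (2.29, 0.0327). Hoxa13 went from 0.641, 1.07 and 1.17 CPM to 5.21, 5.13 and 4.32 CPM. It rose 5.07-fold without overlap (log2 change 2.34, SE 0.185, adjusted p = 5.06e-10), to 1.98 ± 0.199 CPM per kb, below the 9.91 of MEFs. Hoxa10 rose 4.28-fold, Hoxa11, which patterns the forearm with Hoxd11, 4.19-fold, Hoxa9, a gene of blood progenitors, 8.22-fold and Hoxa2 5.16-fold. At P3, Hoxa9 had only 1, 3 and 3 counts and Hoxa2 4, 10 and 2, so these 2 folds are uncertain in size. Without P3 replicate 2 the log2 change of Hoxa2 was 3.16 beside 2.37. Of Hoxa11's exon bases 38.6% are shared with an antisense row.

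Several other rises rested on few counts. Hoxd13 had 1, 0 and 1 counts at P3 and 13, 7 and 22 at P12, a ratio of 22.7 with a 95% counting interval of 5.90 to 193. The ratio was 9.72 (2.99 to 50.04) for Hoxd8, 14.03 (2.11 to 596) for Hoxc10 and 13.5 (3.36 to 118) for Hoxa3, and Hoxd3 was at least 3.24-fold higher. The P3 counts of Hoxa3 and Hoxc10 all came from P3 replicate 2, and without P3 replicate 1 the log2 change of Hoxd8 was 3.96 beside 3.11. Both the intervals and the bound reflect counting error alone. Hoxb4 was the member that fell, to 9.89, 8.86 and 8.44 CPM, 1.502-fold without overlap (adjusted p = 0.00312). Without P12 replicate 1 Hoxb5 was called lower as well, which made 2. Hoxc8 had 5 counts over the P12 libraries and 9 over P3, with a log2 change of -0.70 (SE 0.61, adjusted p = 0.491).

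The weakest calls depended on single libraries. Hoxb3, which rose 1.58-fold (adjusted p = 0.0269), missed the threshold without P3 replicate 2 (log2 change 0.62, 0.0797) or 3 (0.61, 0.0822) and P12 replicate 2 (0.59, 0.1) or 3 (0.66, 0.0629). Hoxb7, which rose 2.05-fold (0.02), did so without P3 replicate 3 (0.88, 0.0798) and P12 replicate 1 (0.90, 0.0819) or 2 (0.98, 0.0618), and with limma voom (1.01, 0.052). With plain library totals Hoxb3 was not called (0.60, 0.0618). The 4 Hox genes that had the largest counts at P12, Hoxb4, Hoxa13, Hoxb3 and Hoxb5, had 717, 387, 198 and 162 counts over 3 libraries. Of the regional identity factors 9 rose and 3 fell from P3 to P12 (63.2% called, beside 36.8% of all genes), among them the limb mesenchyme genes Msx1, from 2.57 to 18.3 CPM, and Prrx1, from 178 to 401 CPM. The summed neural markers were 3.32 to 4.62 CPM at P3 and 31.9 to 33.0 CPM at P12. Stmn2 made most of that rise, from 0.362 to 28.4 CPM. Tubb3 rose too, Sox10 fell from 0.586 CPM to 0 and Elavl3 was not called. The fibroblast markers summed to 8151 to 8702 CPM at P3 and 10953 to 11231 CPM at P12. Of the 7, 6 rose and none fell (85.7% called, beside 36.8% of all genes). The part of either list in the Hox changes was not tested.

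CM derivatives carried less of Hoxb2, Hoxb4, Hoxb5 and Hoxb6 and more of several members of clusters A, C and D than P3 ieCPCs. Of 34 members 18 were higher and 4 lower, where 63.1% of all genes were called, 31.9% higher and 31.2% lower. None of the 18 was in cluster B, and all 4 that fell were. Of the 18, 9 had over 3 counts in P3 ieCPCs, so the size of many rises is uncertain. Hoxd8 went from 2, 1 and 0 counts at P3 to 35, 28 and 20 in CM derivatives, or 1.96, 1.47 and 1.22 CPM, a ratio of 44.3 (14.6 to 219, adjusted p = 3.93e-09). Hoxc8 rose 4.98-fold to 0.503, 0.420 and 0.734 CPM (adjusted p = 2.71e-05), and both were apart from P3 in every library. Hoxc10 had a ratio of 36.8 (5.98 to 1517) to a single P3 count in replicate 2, and Hoxd11 rose 5.80-fold. Hoxb4 fell 2.84-fold to 4.59, 6.40 and 3.24 CPM (adjusted p = 4.88e-08). Hoxb5, a trunk gene expressed in the gut and lung, fell 4.48-fold, from 3.098, 2.90 and 2.62 CPM to 0.391, 0.996 and 0.489 CPM (adjusted p = 1.85e-06). Hoxb2 fell 4.37-fold to 0.336, 0.472 and 0.367 CPM (1.34e-05) and Hoxb6 2.73-fold (0.0357). The levels of Hoxb2, Hoxb4 and Hoxb5 did not overlap between the groups.

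The rises in CM derivatives depended on the scaling. With plain library totals the median of all genes moved to -1.001 on the log2 scale and 10 members were called higher and 6 lower. Hoxa5, Hoxa10, Hoxa13, Hoxc4, Hoxc5, Hoxc6, Hoxc9 and Hoxd13 lost their calls, and Hoxa13 turned from 0.87 to -0.12, while Hoxb3 and Hoxb9 were called lower. Relative to the median gene the direction of Hoxa13 held. Hoxd8 at 4.33, Hoxc8 at 1.34 and Hoxc10 at 3.80 were still called higher. Hoxd13 and Hoxc6 were not called without CM replicate 1 (log2 change 1.12, adjusted p = 0.506, and 1.86, 0.0874), nor Hoxd13 without P3 replicate 2 (2.39, 0.0681). With limma voom, Hoxd13 (1.86, 0.118), Hoxc5 (2.19, 0.067) and Hoxc4 (1.88, 0.103) were not called. Hoxc5 and Hoxc9, at 7 and 6 counts in CM derivatives, lost theirs without P3 replicate 1 (2.61, 0.0874, and 2.40, 0.0795) or 3 (2.60, 0.0873, and 2.39, 0.0791) or CM replicate 1 (2.83, 0.0884, and 2.84, 0.0517), Hoxc5 also without CM replicate 2 (2.48, 0.154) and Hoxc9 without CM replicate 3 (2.38, 0.123). Hoxc4, at 6 counts, lost its call without P3 replicate 1 (2.39, 0.114) or 2 (2.37, 0.118), CM replicate 2 (1.03, 0.618), MEF replicate 3 (2.81, 0.0505) or any P12 library (2.82, 0.0513 to 0.0515). Hoxb6 lost its call without P3 replicate 2 (-1.19, 0.126) or 3 (-1.46, 0.0573) or CM replicate 1 (-1.44, 0.0782) or 3 (-0.94, 0.15), and was at -2.36 without CM replicate 2. Hoxd8 was at 6.13 beside 5.28 without P3 replicate 1. Without CM replicate 3, the library that stood apart, 18 were higher and 3 lower. That fit was filtered anew, and the 18 include a row not tested in the main fit, since Hoxc9 lost its call. Hoxd8 then had a log2 change of 5.42 beside 5.28 and Hoxb4 of -1.31 beside -1.51.

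Against P12 ieCPCs, with the same CM libraries, 5 members were higher and 6 lower, beside 62.1% of all genes called, 31.3% higher and 30.8% lower. Hoxc8 rose 8.06-fold (adjusted p = 4.42e-06), Hoxd9, of the lumbar axis and forelimb, 6.86-fold (0.000799), Hoxd8 4.50-fold (5.39e-06), Hoxc10, of the lumbar cord and hindlimb, 2.57-fold (0.0117) and Hoxd11 2.10-fold (0.0316). Hoxb2 fell 4.11-fold, Hoxb5 3.203-fold, Hoxa13 2.78-fold (adjusted p = 2.34e-07), Hoxb3 2.19-fold and Hoxb4 1.89-fold, none with overlap. Hoxd13 fell 2.54-fold (adjusted p = 0.0425) from 0.494, 0.256 and 0.864 CPM to 0.503, 0.105 and 0, which overlap. It was not called without P12 replicate 1 (log2 change -1.40, 0.0595) or 3 (-0.84, 0.246) or CM replicate 2 (-1.01, 0.157) or 3 (-0.83, 0.16), and was at -3.13 (0.0011) without CM replicate 1. Hoxd11 lost its call with limma voom (1.09, 0.0712) and without P12 replicate 1 (0.79, 0.15) or CM replicate 1 (0.84, 0.17) or 2 (1.09, 0.0635), and Hoxc10 without P12 replicate 2 (1.13, 0.0522) or CM replicate 2 (0.94, 0.163), so 3 were higher without CM replicate 2. With plain totals the median gene was at -0.95 and 3 members were higher and 13 lower, and with upper-quartile scaling 4 were higher and 8 lower.

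Compared with MEFs, CM derivatives were lower for 32 of 34 members, beside 70.6% of all genes called, 35.9% higher and 34.7% lower. Most members were tested through groups where they are high, MEFs among them, which favours lower calls. No member was higher by edgeR, DESeq2 or limma voom, and none had an unadjusted p under 0.05 in that direction. Hoxd13 was 734-fold lower, Hoxd8 5.87-fold and Hoxb3 1.68-fold. Without CM replicate 1, which held 9 of its 11 counts, Hoxd13 differed by -11.32 on the log2 scale beside -9.52. The call of Hoxb3 was lost without MEF replicate 3 (log2 change -0.59, adjusted p = 0.0898) or CM replicate 3 (-0.49, 0.109). That of Hoxb2, 2.42-fold lower, was lost without MEF replicate 1 (-0.79, 0.0628). Hoxb4 was not called, at 5.47 ± 1.27 and 4.74 ± 1.58 CPM (log2 change -0.19, SE 0.185, adjusted p = 0.358), nor was Hoxb1, at 5 and 6 counts. Hoxb4 was called lower without CM replicate 2 (-0.50, 0.0228) and with plain totals (-0.89, 0.000386), where the median of all genes was at -0.67. Macrophage markers summed to 22.8 to 28.1 CPM in CM derivatives and 5.16 to 5.38 CPM in P3 ieCPCs, and the part of such cells in the Hox levels was not tested.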

How the data were processed

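RNA-seq was run on an Illumina GAIIx from 10 µg of RNA per library, per the labels' protocols. Per the submitters' processing notes, TopHat2 2.0.13, featureCounts of Subread and build mm9 were used, with the strand setting not given in the sources used here. The authors deposited raw counts per gene, which were used here, and CPM columns, which were not. Their deposited FPKM columns were treated as a score and left out, since 14 of 15 are not CPM over gene length.

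Genes passing filterByExpr (17999 of 37991) were fitted with edgeR 4.0.16 (R 4.3.3, limma 3.58.1): TMM scaling, all 15 libraries, 1 mean per group, quasi-likelihood F test, 2-sided, Benjamini-Hochberg over all genes in each of 7 comparisons, called at an adjusted p under 0.05. Several comparisons share libraries. SE is the log2 change divided by the square root of F. Common biological variation was 0.0679. With 0 counts in a group, folds are bounds at 3 counts over that group. With 1 to 3 counts, a ratio with a 95% interval is given, or a fold is left out. Log2 changes quoted for other settings or left-out libraries are fitted values, as are the values they stand beside. The same holds for the plotted changes and for medians not given with bounds. At 3 counts or fewer in a group their size is uncertain. An exact permutation test of 3 against 3 libraries has a smallest p of 0.1, so none was run. Same-numbered replicates were not treated as pairs.

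The members and gene lists were chosen with earlier results of these data known. Named genes are Hoxd13, Hoxc8 and Hoxa13, the top member of each cluster per kb over all libraries, the extreme called members of each comparison, members called against the majority, and a few genes of each list with large called changes. The top member of a cluster within a single group was not always named. Some genes, 1 Hox member among them, are counted but not reported singly here. Others named in the text, such as flanking members of a cluster, were chosen after their values were seen. Alternatives were RLE, upper-quartile and no scaling, other filters, DESeq2 1.42.0, limma voom, robust weights, a replicate block, only the 6 libraries compared and each library left out.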

Additional observations from a re-analysis of the deposited data

How the results depend on the processing

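Counts of called Hox members kept within 1.5 times of the reported count under RLE, upper-quartile scaling, DESeq2, limma voom, robust weights, mitochondrial rows left out and a minimum of 1 CPM in 3 libraries. Without a TMM factor, members higher in CM derivatives went from 18 to 10 against P3 ieCPCs and from 5 to 3 against P12, and those lower against P12 from 6 to 13. With only the 6 libraries compared, 12, 11 and 12 members were tested and those higher numbered 8 (P12 minus P3), 5 (CM derivatives minus P3) and 1 (minus P12). Those lower in P12 than P3 went from 1 to 2 with that fit and with no filter beyond 1 count.

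With each library left out in turn, counts higher and lower ranged from 10 to 12 and 12 to 14 (day 9 minus MEFs), 2 to 2 and 32 to 34 (P3 minus day 9), 1 to 2 and 29 to 30 (P3 minus MEFs), 10 to 15 and 1 to 2 (P12 minus P3), 17 to 20 and 3 to 5 (CM derivatives minus P3), 3 to 6 and 5 to 8 (minus P12), and 0 to 0 and 32 to 34 (minus MEFs). Each of these fits was filtered anew. The counts can therefore include Hox rows that the main fit did not test, and they do not describe the same 34 members. Among the 140 gene results counted below, signs turned for Hoxa13 in CM derivatives minus P3 (-0.12, no scaling), Hoxb3 in P3 minus MEFs (0.011, no scaling), and, uncalled, Hoxb2 with single libraries left out, at -0.197 to 0.063 in P12 minus P3 (positive without P3 replicate 1) and -0.650 to 0.088 in day 9 minus MEFs (positive without MEF replicate 1). Over 140 gene results and 26 alternatives, 3550 of 3620 values kept their direction and side of the threshold. These leave out 35 further uncalled results of the same members, of which 17 had the other sign and 12 were called in some alternative. Neither count covers Hoxa9, Hoxa11, Hoxb7, Hoxb8, Hoxc4, Hoxc5, Hoxc9, Hoxd1 or Hoxd10. Of those, Hoxb7, Hoxc4, Hoxc5, Hoxc9 and Hoxd1 changed call in several alternatives. The cause of the other changes was not tested.

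The deviations of same-numbered replicates correlated at -0.0383 to 0.033 over 30 pairs of libraries. With the replicate block, members higher at day 9 went from 12 to 13 and no other count changed. Hoxd1, Hoxb8 and Hoxd12 had 0 to 2 counts in each of the last 3 groups, and differences between those groups were not detectable at this depth.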
